A study of Mus musculus with 7 samples.

Results

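Cohesin is a ring-shaped protein complex that holds DNA strands together and extrudes chromatin loops. Most loops end where CTCF, a zinc finger protein that binds a long DNA motif, stops the ring, but cohesin is also found at enhancers and promoters where no CTCF is detected. Such places are called cohesin-non-CTCF (CNC) sites, and in liver they are known from enhancers and genes of hepatocyte function. Rad21 is the subunit that closes the ring, and its ChIP-seq peaks stand for cohesin. The regions described here are the CNC sites at promoters.

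Nuclei were isolated from livers of 8-week-old female mice of the outbred stock Crl:CD1(ICR), which carried no engineered allele and received no treatment. Each library came from the liver of 1 mouse, with 3 Rad21 and 4 CTCF libraries. There is 1 merged peak list for each antibody, read here as called on its combined libraries, so the values have no replicates and no SD, and the read depth behind them is not in the peak lists. Whole liver holds several cell types, and a weak peak from all cells and a strong peak from few cells cannot be told apart.

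The regions were chosen by their peak calls and position. A Rad21 peak on an autosome was taken where no CTCF peak overlapped it by 1 bp and where its summit lay within 1 kb of a transcript start in the GENCODE annotation of mm9. This gave 2780 peaks of the 67228 autosomal Rad21 peaks (68656 peaks on all chromosomes). They made up 15.6% of the 17866 autosomal Rad21 peaks without CTCF (95% Wilson interval 15.04 to 16.1%), the other 15086 being distal. Among Rad21 peaks that overlapped a CTCF peak, called shared peaks below, 27.5% were at promoters (27.1 to 27.9%, 13573 peaks), so a promoter position was 11.9 percentage points less frequent without CTCF than with it (95% Newcombe interval of the difference −12.6 to −11.3). The share of 15.6% depended on the rule, being 9.38% with no CTCF peak within 1 kb of the Rad21 peak and 7.17% where peaks had to reach 5 in fold enrichment. The difference was not recomputed for these settings. All intervals cover counting error over peaks or genes only, not variation between mice, and neighbouring peaks and starts are not independent. The number of promoter CNC peaks per 100 protein-coding genes ranged from 8.29 on chromosome 14 to 15.3 on chromosome 12.

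The nearest start belonged to a protein-coding gene for 2468 of the 2780 peaks (88.8%). It was a processed transcript for 100, a long intergenic non-coding RNA for 99, a pseudogene for 34, a miRNA for 29, a snoRNA for 22 and an snRNA for 20. The summit lay in an exon at 954 peaks, in an intron at 1283 and between genes at 543.

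The sequence just before the start is shown for 4 of the named genes, to set a strong promoter CNC peak in CpG-rich sequence (Cav2) beside CpG-poor promoters of liver enzymes and transporters. Each is the 150 bases before the start nearest the summit, 5′ to 3′ along the gene, from the mm9 reference and not from these outbred animals, and none overlaps an annotated exon. Capitals mark matches to the 15 short words searched, which are given with the sequence results. Cav2 is at chr6:17231035-17231184 on the plus strand, Ces2g at chr8:107485468-107485617 (plus), Gsta3 at chr1:21230520-21230669 (plus) and Slco1b2 at chr6:141577889-141578038 (plus).
Cav2: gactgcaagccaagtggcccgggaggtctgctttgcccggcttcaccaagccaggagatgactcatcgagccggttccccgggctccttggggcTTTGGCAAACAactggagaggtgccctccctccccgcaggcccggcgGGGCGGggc
Ces2g: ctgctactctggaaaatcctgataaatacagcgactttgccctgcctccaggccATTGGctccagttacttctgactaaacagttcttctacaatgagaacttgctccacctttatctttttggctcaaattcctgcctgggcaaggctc
Gsta3: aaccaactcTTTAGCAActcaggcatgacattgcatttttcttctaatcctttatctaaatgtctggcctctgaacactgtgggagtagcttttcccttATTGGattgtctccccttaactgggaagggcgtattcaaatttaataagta
Slco1b2: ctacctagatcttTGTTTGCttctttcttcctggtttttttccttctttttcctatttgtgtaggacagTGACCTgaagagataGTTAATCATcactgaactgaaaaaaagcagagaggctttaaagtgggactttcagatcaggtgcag
The Cav2 stretch holds 9 CpG dinucleotides and 68.7% GC, with a GGGCGG word 9 bases before the start. The other 3 hold 0 or 1 CpG and 38.7 to 46.7% GC. The CCAAT word, bound by NF-Y, is present in reverse (ATTGG) in Ces2g and Gsta3. Slco1b2 has a TGTTTGC word, of the kind that FOXA factors bind, 137 bases before the start and a GTTAATCAT word, of the kind that HNF1 factors bind, 66 bases before the start, but the Slco1b2 peak begins closer to the start than all its marked words and none of the words searched lies within 100 bp of its summit. Over all 67114 distinct protein-coding starts, the same 150 bases held CCAAT in 22.4%, TGTTTGC in 2.16% and the HNF1 word in 0.365%. A match is a description of letters and not evidence of binding.

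Promoter CNC peaks were weak. Their fold enrichment at the summit, the ChIP signal over local background that the authors' peak caller gives, had a median of 3.15 (interquartile range 2.74 to 3.68) and reached at most 9.53. The median was 3.50 for distal CNC peaks and 5.01 for promoter shared peaks. It was 7.06 for distal shared peaks. Since the peak call chose the regions, these are descriptions without a test. The promoter CNC peaks were 287 bp wide in the median, compared with 306 bp for distal CNC peaks and 542 bp for promoter shared peaks. A −log10 q of at least 10 was reached by 651 of the 2780 (23.4%) and a fold enrichment of at least 5 by 125 (4.50%).

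**Figure D1:**
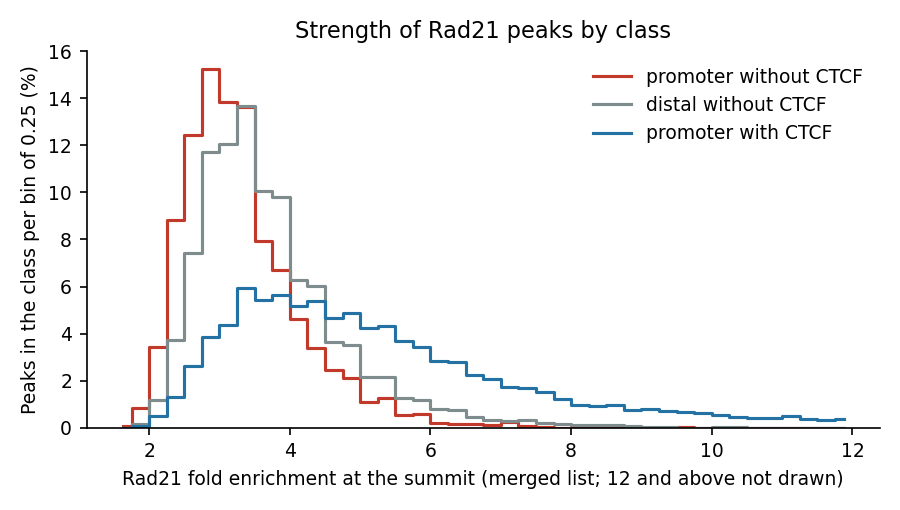
Distribution of Rad21 fold enrichment at the summit for promoter peaks without CTCF, distal peaks without CTCF and promoter peaks with CTCF. The x axis is fold enrichment in the merged list and the y axis the percent of each class per bin of 0.25. Promoter peaks without CTCF lie lowest (median 3.15). The 1151 promoter peaks with CTCF (8.48%) and 6 distal peaks without CTCF of 12 or more are not drawn.

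The limits of the rule do not separate distinct values. Just inside 1 kb, the peaks near Reep6 and Spty2d1 had summits exactly 1000 bp from a start, with fold enrichments of 2.60 and 2.98. Just outside, the peaks near Bmpr1a and Mll5 lay at 1001 bp, with 2.54 and 3.10. The 139 peaks in the last 100 bp inside the limit had a median of 2.94, close to 2.98 for the 140 distal CNC peaks in the first 100 bp beyond it. At the CTCF limit, the peak at Parvb (3.15) directly adjoined a CTCF peak with 0 bp between them, and that at Dnajc7 (4.21) was 1 bp from one, whereas shared peaks at Unc45b (2.65) and Pkd1 (3.39) overlapped one by 2 bp. The 119 promoter CNC peaks within 50 bp of a CTCF peak had a median of 3.12, and the 85 shared promoter peaks with 1 to 50 bp of overlap had 3.05.

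Summits were concentrated just downstream of starts. The signed distance had a median of 76 bp downstream, and 25.3% of summits were within 100 bp of a start (23.7 to 26.9%). Upstream of the start were 1058 of 2780 (38.1%, 36.3 to 39.9%), compared with 38.2% of promoter shared peaks, a difference of −0.143 percentage points (−2.11 to 1.85). The classes were thus not separated by side. They differed in spread. More than 500 bp from the start lay 29.4% of promoter CNC summits (27.7 to 31.1%) but 15.6% of shared summits (14.98 to 16.2%). The spread of promoter CNC summits was widest at starts that also had a separate shared peak. There the interquartile range of the signed distance was −233 to 534 bp. It was −150 to 202 bp at starts with neither a shared nor a CTCF peak, and −133 to 170 bp for shared peaks. A separate shared peak takes up room near the start, and its part in the difference was not tested.

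**Figure D2:**
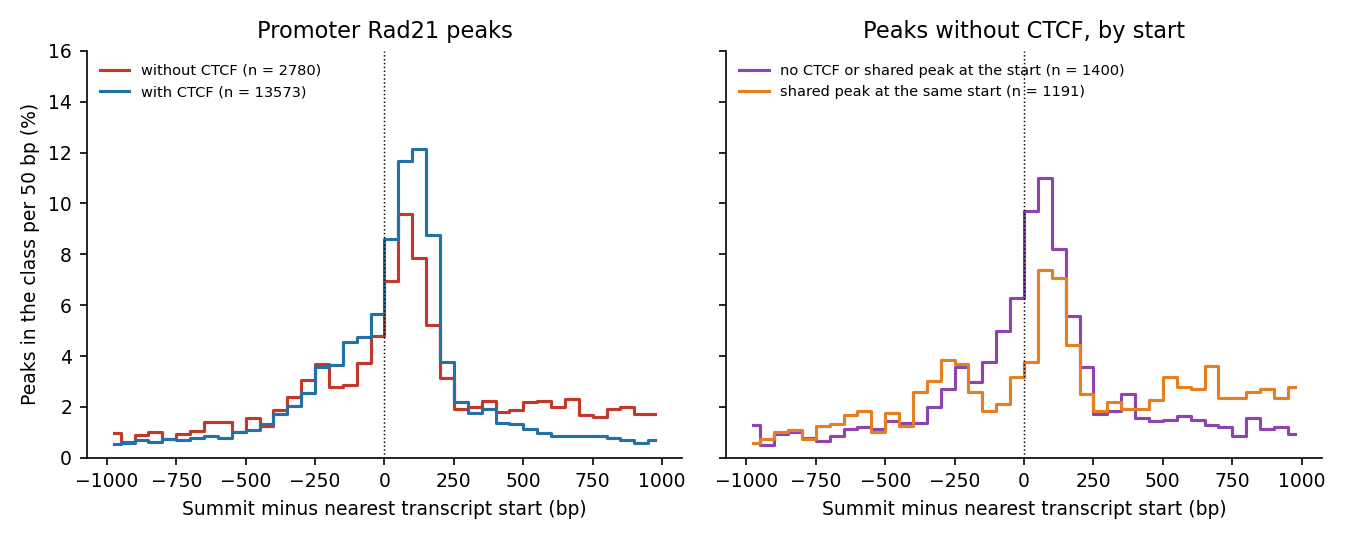
Position of Rad21 summits around the nearest transcript start, as the percent of each class per 50 bp (y axis) against summit minus start in bp (x axis, positive is downstream). Left, promoter peaks without CTCF (2780) and with CTCF (13573) both peak just downstream of the start. Right, among peaks without CTCF, the 1400 at starts with neither a shared nor a CTCF peak are concentrated at the start, and the 1191 beside a shared peak also have summits about 250 bp upstream and beyond 500 bp downstream.

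Many promoter CNC peaks were not isolated from CTCF. At 1191 of the 2780 (42.8%, 41.0 to 44.7%) a separate shared Rad21 peak had its summit within 1 kb of the same start. At another 189 (6.80%) the start had no shared peak but had the summit of a CTCF peak within the same distance. The remaining 1400 (50.4%, 48.5 to 52.2%) had neither. The division is by summits near the start and not by distance from the peak, and a CTCF peak lay within 965 bp of 1 in 10 of these 1400 and at the least 1 bp away. This division was made after the values were seen. The gap to the nearest CTCF peak had a median of 733 bp (interquartile range 231 to 4322 bp), and 748 peaks were within 250 bp of one, 746 between 250 bp and 1 kb, and 186 more than 20 kb away. For distal CNC peaks the median gap was 5793 bp.

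**Figure D3:**
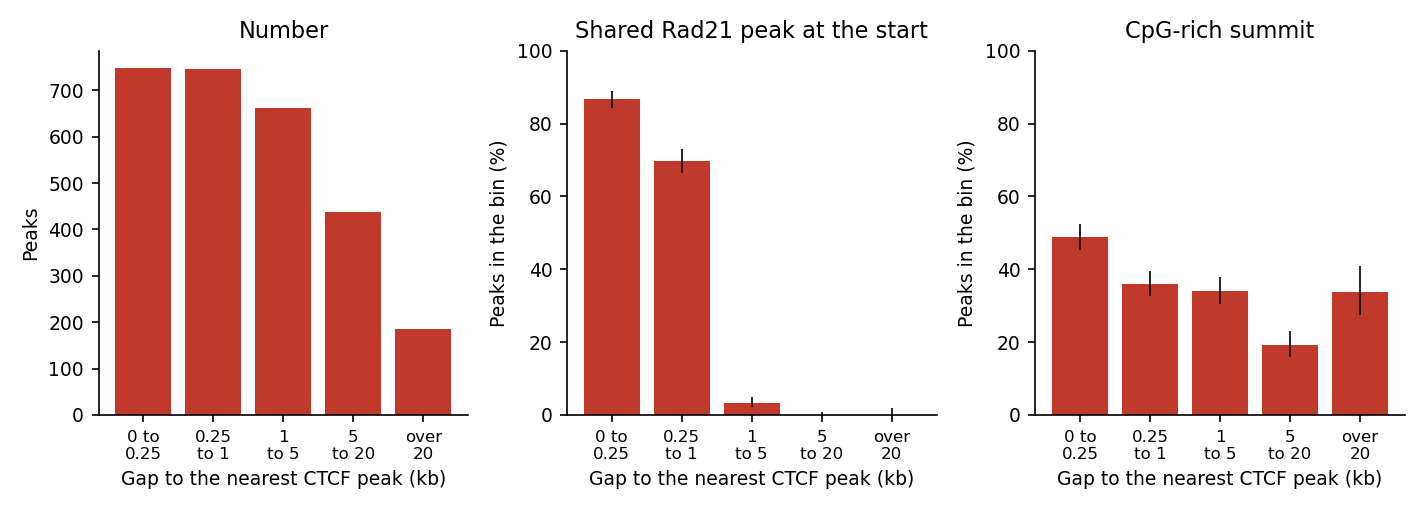
Promoter Rad21 peaks without CTCF, binned by the gap to the nearest CTCF peak (x axis, kb). Left, the number of peaks, from 748 in the nearest bin to 186 in the farthest. Middle, the percent with a shared Rad21 peak at the same start, 86.8% in the nearest bin and 0 in both bins beyond 5 kb, where the definitions leave no room for one. Right, the percent whose summit is CpG-rich, highest in the nearest bin (48.9%). Bars are shares and lines are 95% Wilson intervals.

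The peaks with neither a shared nor a CTCF summit within 1 kb of their start were slightly stronger, with a median fold enrichment of 3.32 against 2.97 for those beside a shared peak. From the weakest to the strongest of 4 equal groups of promoter CNC peaks by fold enrichment, the share beside a shared peak was 58.3%, 46.6%, 38.3% and 28.2%. The side did not follow this order: the upstream share was 37.0%, 40.3%, 37.4% and 37.6% in the same groups. Head-to-head starts of a pair of protein-coding genes on opposite strands, both within 1 kb of the summit, were found at 183 peaks (6.58%, 5.72 to 7.57%). This was 2.02 percentage points below promoter shared peaks (95% Newcombe interval −3.01 to −0.937). It was 11.1% for the peaks beside a shared peak and 2.93% for those with neither.

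Distal CNC sites were frequent around promoter CNC peaks. At least 1 distal CNC peak lay within 50 kb of 1778 of the 2780 (64.0%, 62.2 to 65.7%) and at least 3 within 50 kb of 689 (24.8%, 23.2 to 26.4%). For promoter shared peaks these shares were 53.8% (53.0 to 54.7%) and 15.96% (15.4 to 16.6%). For protein-coding starts without a Rad21 peak they were 36.2% and 7.99%. The peaks beside a shared peak (64.9%) and those with neither (64.1%) had overlapping intervals for at least 1 distal CNC peak.

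The strongest promoter CNC peak, of fold enrichment 9.53 (−log10 q 43.2), spanned chr6:17231013-17231588. Its summit was in an exon of Cav2, a caveolin family membrane protein, 14 bp downstream of the start whose preceding sequence is printed above. The nearest CTCF peak was 25779 bp away. Next among peaks at protein-coding genes came 9530008L14Rik (8.03, chr13:41923496-41924152, summit 21 bp downstream of a start) and Ccdc162 (7.32, 881 bp upstream of a start inside the gene). Ces2g, a carboxylesterase gene, had 7.26 at chr8:107485410-107486021, 42 bp upstream of its start. The others of the 10 strongest at protein-coding genes were Pde6h (7.21), an inhibitory subunit of the cone photoreceptor phosphodiesterase, Rdh9 (7.13), a retinol dehydrogenase, Plekhm2 (7.09), Fam49a (7.08), Kpna2 (7.08), a nuclear import receptor, and Mtpap (7.04), the mitochondrial poly(A) polymerase. Of these 10, Plekhm2 and Kpna2 had a shared peak at the start and the other 8 had neither a shared nor a CTCF peak there. Cav2 with 9.53 exceeded only 77.3% of all autosomal Rad21 peaks, and Mtpap 68.0%.

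At the level of genes, 2426 of 21418 autosomal protein-coding genes (background 11.3%, 10.9 to 11.8%) had a promoter CNC peak within 1 kb of an annotated start. Of these genes, 305 had at least 2 such peaks. A shared peak was within 1 kb of a start for 10581 genes (background 49.4%). Both kinds were present at 1601 genes. A promoter CNC peak without a shared peak was present at 825 (background 3.85%), and 10012 genes had no Rad21 peak at a start. In the counts over genes that follow, a shared peak counts at any start of the gene, so a gene can have a shared peak while the named peak has none at its own start. A promoter CNC peak also counts at any annotated start, which can lie far inside the gene. Among peaks named below, the summit lay 52059 bp downstream of the 5′-most start at Apoh, 46624 bp at Prlr and 27954 bp at Gpam. It lay 24138 bp downstream at Slc2a2, 16425 bp at Bcl6 and 13885 bp at Ppargc1a. A promoter CNC peak was present at 15.1% of genes with a shared peak and at 7.61% of genes without one. A gene with more annotated starts has more places for either peak, and these counts were not adjusted for the number of starts.

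Genes for plasma proteins, which hepatocytes secrete into blood, carried these peaks far more often than the background. Of 47 such genes, 24 had a promoter CNC peak (51.1%, 37.2 to 64.7%, background 11.3%). In 16 of them (34.0%, 22.2 to 48.3%, background 3.85%) it was there without a shared peak. A shared peak was present at 17 of the 47 (36.2%, background 49.4%), and 14 had no Rad21 peak at a start. Among the 30 plasma protein genes without a shared peak, 53.3% had a promoter CNC peak (36.1 to 69.8%), compared with 7.61% of all such genes. Counted only at the 5′-most start of each gene, the peaks were at 20 of the 47 (42.6%, against 8.53% of all genes). Stricter rules lowered the share by over 1.5 times. It was 29.8% (18.7 to 44.0%, against 4.74% of all genes) with no CTCF peak within 1 kb of the Rad21 peak, 23.4% (13.6 to 37.2%, against 2.94%) at a −log10 q of at least 10, and 2.13% (1 gene, 0.377 to 11.1%, against 0.523%) at a fold enrichment of at least 5, where the interval includes the share of all genes. Distal CNC peaks inside the gene were present at 9 of the 47 (19.1%), near the 16.5% of all genes. Among the hepatocyte lists described below, this share was 4.76% for acute-phase protein genes. It was 34.6 to 61.1% for the metabolic, xenobiotic and transcription factor lists, lowest for the urea cycle and amino acid catabolism and highest for fatty acid synthesis. Gene length was not taken into account.

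The strongest peaks in the plasma protein list were at Fetub (5.14), which encodes fetuin-B, Apoh (4.49), which encodes beta-2-glycoprotein, and Apob (3.89), the structural protein of very low density lipoprotein. That at Fetub lay 968 bp downstream of a start within the gene. The Apob peak, chr12:7984219-7984796, had its summit 6 bp downstream of a start and was beside a shared peak. Albumin (Alb), chosen after its values were seen as the defining hepatocyte product, had a peak of 3.24 (−log10 q 6.79) at chr5:90889545-90890055 with the summit 22 bp upstream of the start, 12632 bp from any CTCF peak. The values of the list reached down to 2.17 at Apoc1, so the peaks at these genes were not among the strongest and only Fetub exceeded 5.

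Acute-phase protein genes, which inflammation induces in liver, had a promoter CNC peak in 8 of 21 (38.1%, 20.8 to 59.1%, background 11.3%), and 7 of the 8 had no shared peak (33.3%, 17.2 to 54.6%, background 3.85%). Of the 8, Fga, Hp and Itih4 stand in the plasma protein list too, so the 2 lists are not separate evidence. The strongest were at Apcs (5.99), which encodes serum amyloid P, Hamp (4.81), which encodes the iron hormone hepcidin, and Fga (3.76), the fibrinogen alpha chain. The Hamp peak lay 395 bp upstream of the start and 11251 bp from a CTCF peak. That at Fga lay 78 bp downstream of a start.

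Metabolic genes of the hepatocyte also lay above the background. In the urea cycle and amino acid catabolism, 12 of 26 genes had a promoter CNC peak (46.2%, 28.8 to 64.5%, background 11.3%), 5 of them without a shared peak (19.2%, 8.51 to 37.9%, background 3.85%). Fah, the last enzyme of tyrosine breakdown, had 3.81, Cps1, the first enzyme of the urea cycle, 3.68 (117 bp downstream of the start), and Hgd, homogentisate dioxygenase, 3.50. In gluconeogenesis and glucose sensing the count was 8 of 16 (50%, 28.0 to 72.0%), again 5 without a shared peak (31.2%, 14.2 to 55.6%). It included Slc2a2, the GLUT2 glucose transporter (3.39), Ppargc1a, a coactivator of the fasting response (3.35), and Fbp1, fructose-1,6-bisphosphatase (3.21). Fatty acid oxidation and ketogenesis had 12 of 24 (50%, 31.4 to 68.6%), with 6 lacking a shared peak (25%, 11.999 to 44.9%). The strongest there were Acaa2, the last enzyme of the mitochondrial beta-oxidation cycle (5.01), and Plin2, a lipid droplet coat protein (4.53).

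Cholesterol and bile acid genes had 7 of 23 (30.4%, 15.6 to 50.9%, background 11.3%) and fatty acid synthesis genes 6 of 18 (33.3%, 16.3 to 56.3%). In these lists a shared peak was present at 21 of 23 and 17 of 18 genes (91.3% and 94.4%, background 49.4%). A promoter CNC peak alone was present at 2 of 23 (8.70%, 2.42 to 26.8%) and 0 of 18 (0 to 17.6%), and both intervals include the background of 3.85%. The 2 were CpG-poor at the summit, at Cyp7a1, the rate-limiting enzyme of bile acid synthesis (4.21, 236 bp upstream of the start), and at Slco1b2, a hepatic organic anion transporter (3.78, chr6:141577998-141578252, 89 bp downstream). Lss, lanosterol synthase, had 3.33 beside a shared peak. In fatty acid synthesis the strongest were Me1, malic enzyme (3.86), Acacb, an acetyl-CoA carboxylase (3.68), and Gpam, which starts glycerolipid synthesis (3.52).

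Xenobiotic metabolism genes had 14 of 32 (43.8%, 28.2 to 60.7%, background 11.3%), of which 9 lacked a shared peak (28.1%, 15.6 to 45.4%, background 3.85%). Ugt2b1, a glucuronosyltransferase, had 4.08, Abcc2, a canalicular export pump, 3.91, and Gsta3, a glutathione transferase, 3.86, at chr1:21230312-21230672 with the summit 173 bp upstream of the start. The Gsta3 peak covers the whole printed stretch.

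Hepatocyte transcription factor genes had 14 of 31 (45.2%, 29.2 to 62.2%, background 11.3%). A shared peak was present at 25 of the 31 (80.6%, background 49.4%). A promoter CNC peak alone was present at 2 (6.45%, 1.79 to 20.7%), an interval that includes the background of 3.85%. The strongest was at Nr1h4, the bile acid receptor FXR (5.08, 51 bp downstream of an internal start). Next were Stat5a, a transcription factor that growth hormone activates (4.13), and Nr1i3, the xenobiotic receptor CAR (3.74, 982 bp upstream). In growth hormone signalling 10 of 19 genes had one (52.6%, 31.7 to 72.7%), 9 of them together with a shared peak. These genes had a median of 5 annotated starts, compared with 2 for all genes. Counted only at the 5′-most start of each gene, the peaks were at 5 of the 19 (26.3%, against 8.53% of all genes). For hepatocyte transcription factors that count was 10 of 31 (32.3%). Prlr, the prolactin receptor, had 4.59, Stat5a the value above, and Bcl6, a repressor, 3.72, with a summit 47 bp upstream of a start.

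Circadian clock genes had 8 of 22 (36.4%, 19.7 to 57.0%), all but 1 with a shared peak too. They were led by Hlf (5.40), an output factor of the clock, then Cry2 (2.75). Counted only at the 5′-most start of each gene, clock genes had 4 of 22 (18.2%, against 8.53% of all genes). Immediate early genes had 6 of 26 (23.1%, 11.03 to 42.1%), led by Junb (3.36), Btg2 (2.63) and Ier3 (2.61). Genes with higher expression in female liver had 5 of 22 (22.7%, 10.1 to 43.4%), with Slc22a26 at 4.98, Prlr at 4.59 and Acot4 at 3.59. Genes with higher expression in male liver had 4 of 24 (16.7%, 6.68 to 35.9%), with Ugt2b1 at 4.08, Slco1a1 at 4.03 and Bcl6 at 3.72. For the immediate early, female-biased and male-biased lists the interval includes the background of 11.3%. A promoter CNC peak without a shared peak was present at 4 of 22 female-biased genes (18.2%, 7.31 to 38.5%) and 4 of 24 male-biased genes (16.7%, 6.68 to 35.9%), both intervals above the background of 3.85%. For immediate early genes it was present at 2 of 26 (7.69%, 2.14 to 24.1%), which includes it. No male data entered these counts.

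Apart from oxidative phosphorylation genes, the housekeeping lists had intervals that included the background of 11.3% for promoter CNC peaks. A shared peak was frequent in all of these lists (background 49.4%). Cytosolic ribosomal protein genes had 10 of 72 (13.9%, 7.72 to 23.7%), with 61 of 72 carrying a shared peak. The strongest were Rps27 (4.65), Rps13 (3.804) and Rpl12 (3.57). Proteasome subunit genes had 5 of 38 (13.2%, 5.75 to 27.3%), led by Psma2 (3.82), Psmb6 (3.47) and Psmb8 (3.05). Cohesin and CTCF genes had 4 of 26 (15.4%, 6.15 to 33.5%), each at a gene with a shared peak, led by Ctcf itself (3.33), Cdca5, which encodes the cohesin stabiliser sororin (3.31), and Yy1 (2.61). Heat shock and chaperone genes had 1 of 24 (4.17%, 0.739 to 20.2%), at Ddit3 (3.43), a stress-induced transcription factor. The list of oxidative phosphorylation genes had more, 17 of 79 (21.5%, 13.9 to 31.8%), an interval above the background of 11.3%. It was led by Ndufb4 (4.73), Uqcr10 (4.61) and Atp5sl (3.34). A promoter CNC peak without a shared peak was present at 5 of the 79 (6.33%, 2.73 to 14.0%), which includes the background of 3.85%.

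The lists were chosen with earlier results of these data in view and share genes (beside those of the plasma and acute-phase lists, Stat5a, Stat5b, Prlr, Bcl6, Ugt2b1, Nr1i2, Nr1i3, Mlxipl and Creb3l3 stand in more than 1), so the counts are descriptions. Markers of other cells were counted in the same way. None of 18 Kupffer cell markers had a promoter CNC peak, which allows a share of up to 16.7%, and 16 of the 18 had no Rad21 peak at a start. None of 23 neuron markers had one either (up to 13.0%), with 20 lacking any. Sinusoidal endothelial markers had 5 of 18 (27.8%, 12.5 to 50.9%), of which 4 lacked a shared peak (22.2%, 9.00 to 45.2%, background 3.85%), led by the receptor tyrosine kinase genes Tek (5.03) and Tie1 (3.97) and the scavenger receptor gene Stab2 (4.47). Stellate cell markers had 3 of 18 (16.7%, 5.84 to 39.2%), at Reln (4.96), Lhx2 (4.18) and Ecm1 (2.56). Cholangiocyte markers had 2 of 14 (14.3%, 4.01 to 39.9%), at Sox9 (2.84) and Cdh1 (2.38). The named summits at Reln and Stab2 were at internal starts, 335439 and 129263 bp downstream of the 5′-most start of the gene. For Kupffer cell (0 to 17.6%), neuron (0 to 14.3%), stellate and cholangiocyte markers the interval includes the background of 11.3%. The livers were not sorted, and which cells gave these peaks was not tested.

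Sensory receptor and keratin genes were almost without such peaks (background 11.3%). Of 1081 olfactory receptor genes 1 had one (Olfr1367, 3.32), of 318 vomeronasal receptor genes none (up to 0.943%), and of 92 keratin and keratin-associated protein genes 1 (Krt23, 3.10). Shared peaks were also rare there, at 2, 1 and 3 genes (background 49.4%).

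**Figure D4:**
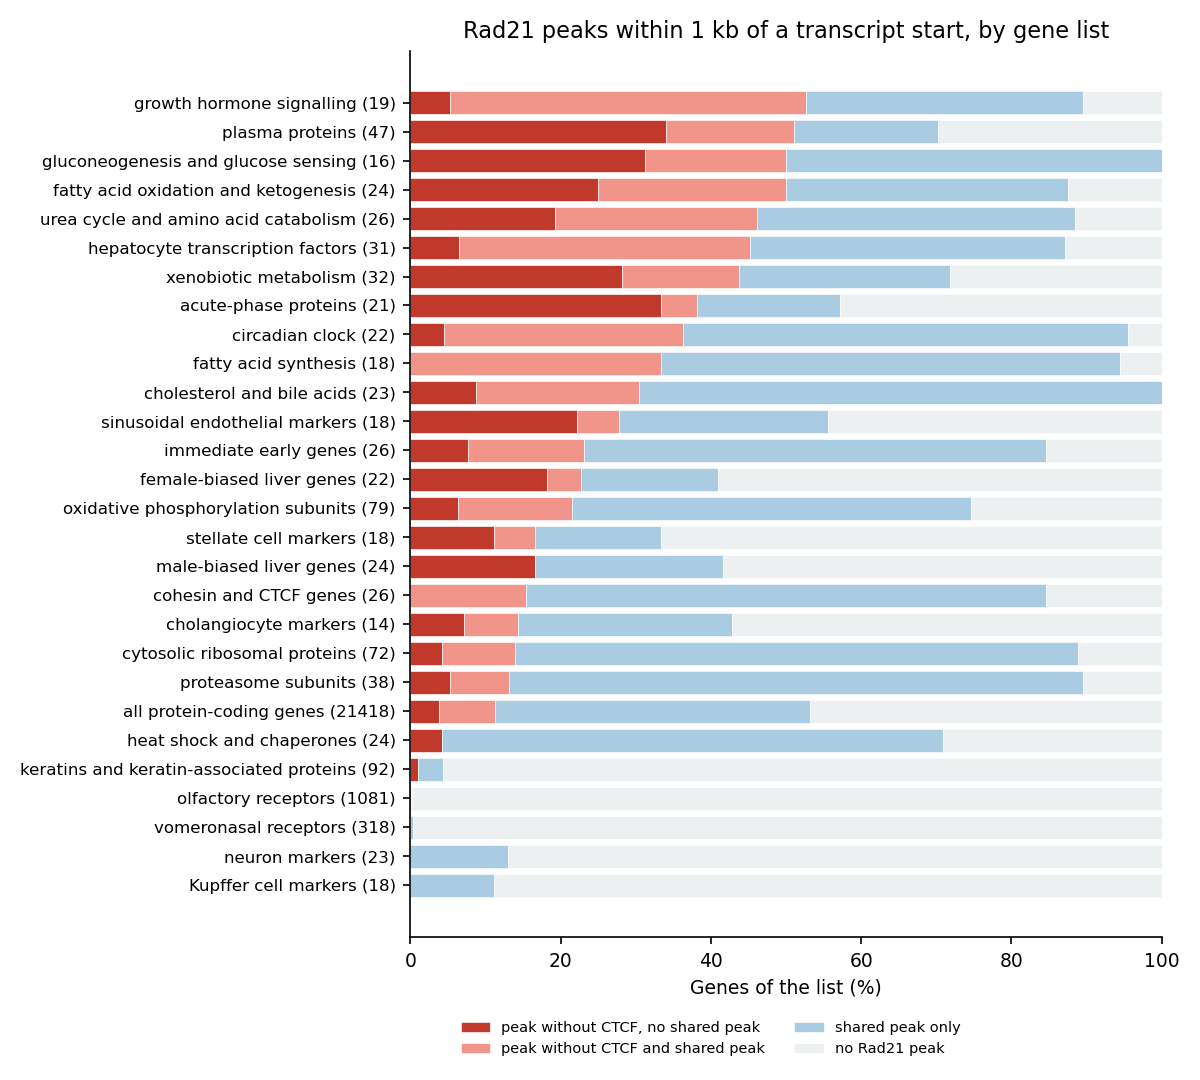
Rad21 peaks within 1 kb of a transcript start for 27 gene lists and for all protein-coding genes, with the number of genes in parentheses. Each bar divides the genes of a list (x axis, percent) into those with a peak without CTCF and no shared peak, those with both kinds, those with a shared peak only and those with no Rad21 peak. Plasma proteins have 34.0% in the first group, all genes 3.85%, and cytosolic ribosomal proteins mostly a shared peak only.

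The sequence at promoter CNC summits lay between that of distal CNC sites and that of promoters bound by both factors. Within 100 bp of the summit, 1007 of 2780 (36.2%, 34.5 to 38.0%) were CpG-rich, defined as at least 50% GC and a CpG frequency of at least 0.6 of that expected from the base composition. This was 34.3 percentage points above distal CNC peaks (1.89%, interval of the difference 32.6 to 36.2) and 30.2 points below promoter shared peaks (66.4%, difference −30.2, −32.1 to −28.2). In windows centred on the start, protein-coding starts without a Rad21 peak had 16.8%, and all protein-coding starts 44.2%. As promoter CNC summits lay farther from starts than shared summits, the comparison with shared peaks was repeated by distance. Within 100 bp of the start 47.7% were CpG-rich against 76.7% (difference −29.0, −32.9 to −25.1), and from 500 bp to 1 kb 16.8% against 31.6% (difference −14.9, −18.0 to −11.5). The peaks beside a shared peak were CpG-rich more often (41.4%) than those with neither (30.4%, difference of the latter from the former −10.97, −14.6 to −7.26).

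The share with a CTCF motif is bound to the rule, which left out peaks with CTCF. With a 20 bp matrix learned on odd-numbered autosomes and applied to even-numbered ones, 25 of 1261 promoter CNC peaks had a match (1.98%, 1.35 to 2.91%), compared with 3.10% of distal CNC peaks (difference −1.12, −1.89 to −0.119) and 17.4% of promoter shared peaks. The threshold was the score reached in 1% of background windows. At a threshold reached in 5%, the share was 8.72% (7.29 to 10.4%) and no longer differed from distal CNC peaks at 8.84% beyond the interval (difference −0.115, −1.70 to 1.69). At the 1% threshold, it was 1.24% (0.694 to 2.21%) with summits within 500 bp of a start and 6.45% (4 of 62, 2.54 to 15.4%) at a fold enrichment of at least 5.

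Short words for other factors were searched within 100 bp of the summit on both strands. For protein-coding starts the window was centred on the start instead. Promoter CNC summits often lay away from the start, so contrasts with starts compare unlike positions. They were not repeated by distance. For the liver-enriched factors the word for HNF4A was CAAAGTCCA, a pair of words for FOXA was TGTTTAC and TGTTTGC, the word for C/EBP was TTGCNNAA, and that for HNF1 was GTTAATNAT. The core that many nuclear receptors bind was searched as AGGTCA and the STAT site as TTCNNNGAA. General promoter factors were represented by CCAAT for NF-Y, GGGCGG for SP and KLF factors, CCGGAAG for ETS factors and GCGCATGCG for NRF1. The remaining words were TGACGTCA for CREB, CACGTG for the E-box, AAGATGGCG for YY1 and TATAAA for the TATA box. FOXA and C/EBP words can overlap each other, as they do before Cav2.

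GGGCGG was the most frequent word at promoter CNC peaks, at 658 of 2780 (23.7%, 22.1 to 25.3%). It was found at 4.37% of distal CNC peaks (difference 19.3, 17.7 to 20.9) and 39.5% of promoter shared peaks (difference −15.8, −17.6 to −14.0). Starts without a Rad21 peak had 16.6%, and all starts 34.7%. CCAAT followed at 19.9% (18.4 to 21.4%), below starts without a Rad21 peak (23.9%, difference −4.07, −5.58 to −2.48) and above promoter shared peaks (13.3%).

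At least 1 of the 5 words for the liver-enriched factors HNF4A, FOXA, C/EBP and HNF1 was present at 432 peaks (15.5%, 14.2 to 16.9%). The share was 26.3% at distal CNC peaks (difference −10.8, −12.3 to −9.23), 8.07% at promoter shared peaks (difference 7.47, 6.09 to 8.94) and 12.2% at starts without a Rad21 peak (difference 3.31, 1.96 to 4.74). The excess over promoter shared peaks was present at every distance, from 13.0% against 6.57% within 100 bp of the start to 19.1% against 13.3% from 500 bp to 1 kb. The classes also differed in CpG content, with 36.2% of promoter CNC peaks, 1.89% of distal CNC peaks, 66.4% of promoter shared peaks and 16.8% of starts without a Rad21 peak CpG-rich, and its part in the word shares was not tested. Among promoter CNC peaks, the words were more frequent at peaks with neither summit at their start (17.6%) than at those with a shared peak there (13.7%, difference 3.89, 1.07 to 6.66). They did not follow strength, with 16.3%, 15.4%, 14.2% and 16.3% from the weakest to the strongest group.

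Counted singly, C/EBP words were at 8.56% of promoter CNC peaks (13.6% of distal CNC, 4.65% of promoter shared peaks), TGTTTGC at 4.03% (7.93% and 2.31%), TGTTTAC at 2.99% (5.08% and 1.19%), CAAAGTCCA at 0.612% (1.65% and 0.221%) and HNF1 words at 0.576% (1.19% and 0.228%). AGGTCA had 13.2% (22.7% and 8.67%) and STAT words 5% (6.67% and 3.34%). In each of these 7 the promoter CNC share lay between those of the other 2 peak classes, and each difference from them had an interval that left out 0. Against starts without a Rad21 peak the interval left out 0 for C/EBP (6.84%), TGTTTAC (2.07%) and CAAAGTCCA (0.277%), each higher at promoter CNC peaks. It included 0 for TGTTTGC (difference 0.571, −0.126 to 1.39), HNF1 words (0.142, −0.0906 to 0.505), AGGTCA (1.22, −0.0337 to 2.57) and STAT words (−0.584, −1.37 to 0.320). TATAAA was at 4.60% (3.89 to 5.45%), below starts without a Rad21 peak (9.70%, difference −5.09, −5.87 to −4.20) and above promoter shared peaks (2.52%). The contrast with starts is between windows centred on summits and windows centred on starts, and the part of this in the difference was not tested.

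The words of CpG-rich promoters took the opposite order. ETS words were at 3.78% of promoter CNC peaks, 1.12% of distal CNC and 5.51% of promoter shared peaks. NRF1 words were at 0.216%, 0.0398% and 0.589%, and YY1 words at 0.468%, 0.0663% and 1.06%. For CACGTG (3.35%) and the CREB word (0.324%) the differences from both other classes had intervals that included 0.

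**Figure D5:**
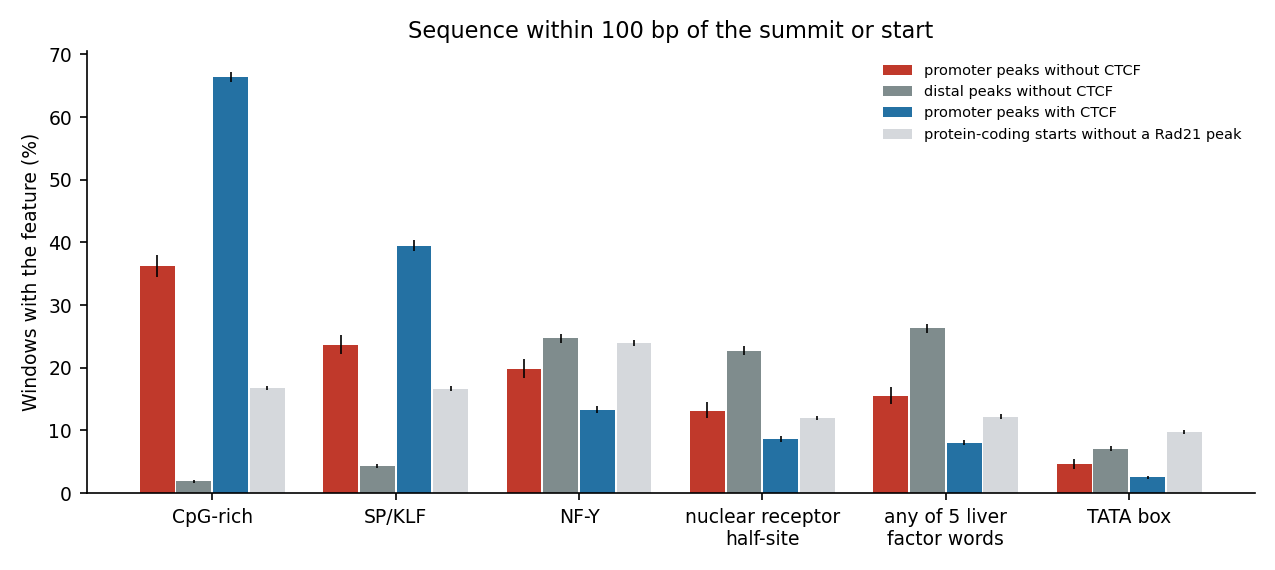
Percent of windows (y axis) that are CpG-rich or hold a word on either strand, within 100 bp of the Rad21 summit for 3 classes of peaks and of the transcript start for protein-coding starts without a Rad21 peak. Lines are 95% Wilson intervals. Promoter peaks without CTCF lie between the other peak classes in CpG-rich sequence (36.2%), SP/KLF words (23.7%) and liver factor words (15.5%).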

How the data were processed

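ChIP-seq libraries of Rad21 (3) and CTCF (4) came from livers of individual female mice. According to the study's methods, Bowtie2 placed the reads on mm9, only uniquely placed reads were used, and the authors called peaks with MACS2, leaving out blacklisted peaks and those built from identical reads. The methods describe combining replicate reads into a merged sample for each sex and factor in another step. That each list was called on such a sample is inferred from its name (merged) and from its peak names, which all carry 1 run. The 2 deposited peak lists give fold enrichment at the summit (a ratio to local background, computed by the authors' peak caller) and −log10 q values. A merged list holds no spread between mice, so no test between samples was possible. No column of per-sample values was left unused (0 columns).

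Peaks were overlapped by at least 1 bp and placed by summit against 82148 autosomal transcript starts of the GENCODE M1 annotation (mm9). Shares are given with 95% Wilson intervals and differences with 95% Newcombe intervals. Where a share was 0, the limit is 3 counts of the total. Sequence was read within 100 bp of summits. The CTCF matrix (20 bp) was learned from 1000 CTCF peaks of odd-numbered autosomes. Python 3.11.15, numpy 2.4.6, pandas 2.3.3, scipy 1.17.1, pysam 0.24.0, samtools 1.23.1 and matplotlib 3.10.9 were used, and the counting steps were tested on simulated data.

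Named are the 10 strongest peaks at protein-coding genes, the 3 genes with the strongest peak in each of 27 lists and 2 peaks on each side of each limit. Sequences are shown for 4 of these genes. Some of the genes and sequences that this rule names are not reported here. The regions and lists were chosen with earlier results of these data known. Alternatives changed the distance limit, the peak threshold, the CTCF overlap or gap, the starts used, and the CpG and motif windows. The 5′-most start and the peaks without a shared peak at the start were added after seeing the data.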

Additional observations from a re-analysis of the deposited data

Results flagged for a closer look

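The X chromosome was outside the rule, which took autosomes only. It held 81 Rad21 peaks without CTCF at promoters, of 267 X-linked Rad21 peaks without CTCF (30.3%, 95% Wilson interval 25.1 to 36.1%) and 1419 Rad21 peaks in all. Their median fold enrichment was 3.33. There was no control sample in the lists to set beside this count.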

How the results depend on the processing

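No paired analysis was possible because each antibody has 1 merged peak list. For the same reason no replicate could be left out. Of 86 values recomputed under the alternatives, 25 stayed within the 95% interval of the value reported, or within 1.5 times a count, and the other 61 are given here. The cause of these differences was not tested beyond what each alternative changes by construction.

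With summits within 500 bp of a start, 10.99% of peaks without CTCF were at promoters, the median fold enrichment was 3.24, 44.3% were CpG-rich, 8.33% of genes had a promoter CNC peak, 5.25% of peaks were at divergent starts and 1.24% had a CTCF motif. Within 2 kb, 20.7% were at promoters, 29.1% were CpG-rich and 14.0% of genes had one. With a −log10 q of at least 10, 651 peaks were left, 14.4% of those without CTCF, with a median of 4.14, 35.0% upstream, 47.0% CpG-rich, 2.94% of genes and 23.4% of plasma protein genes. With a fold enrichment of at least 5, 125 were left, 7.17% of those without CTCF, with 35.2% upstream, 38.4% CpG-rich, 0.523% of genes, 2.13% of plasma protein genes (1 gene) and a CTCF motif in 6.45%.

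Where CTCF had to cover at least 50% of a shared peak, 4284 peaks counted as without CTCF at promoters, 19.2% of all without CTCF, with a median of 3.39, 45.1% CpG-rich and 17.2% of genes. Where no CTCF peak could lie within 1 kb, 1286 were left, 9.38% of all without CTCF, with a median of 3.33, 40.6% upstream, 29.0% CpG-rich, 4.74% of genes, 29.8% of plasma protein genes, 2.02% at divergent starts and 2.94% with a CTCF motif. With protein-coding starts only, 12.6% were at promoters, 35.98% upstream, 42.6% CpG-rich and 10.4% of genes had one. At the 5′-most start of each gene, 8.53% of genes had one. Without the peaks beside a shared peak, the median was 3.32, with 32.3% CpG-rich, 5.95% of genes and 3.21% at divergent starts. A CTCF motif threshold at 5% of background windows gave 8.72%. The interval of the plasma protein share lay above the share of all genes under each of these settings in which both were computed, except at a fold enrichment of at least 5, where it rested on 1 gene (0.377 to 11.1%) and included it.

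Within 50 bp of the summit, in place of 100 bp, the shorter window held fewer words: HNF4A 0.252%, TGTTTAC 1.19%, TGTTTGC 2.12%, C/EBP 4.35%, HNF1 0.288%, AGGTCA 6.76%, STAT 2.19%, NF-Y 9.46%, SP/KLF 12.9%, ETS 1.80%, CREB 0.108%, E-box 1.47%, YY1 0.0360% and TATA 2.23%. The read depth behind each list limits which weak CTCF or Rad21 peaks could be called, and it is not in the lists.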
